A study of Mus musculus with 6 samples.

Results

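The transcripts described here are those of 44 genes that carry a cell through mitosis: the G2/M cyclins and kinases, the condensin subunits, and the genes of anaphase and cytokinesis, without kinesins or kinetochore genes. They were taken by symbol, and 44 of 44 were among the 23183 genes measured. The cells were wild-type group 2 innate lymphoid cells (ILC2) from the mouse lung, tissue-resident lymphocytes that lack antigen receptors and secrete type 2 cytokines. Both groups were cultured for 24 h with IL-2, IL-7 and IL-33 at 10 ng/ml. The groups compared were cells given DTA-1, an antibody that activates GITR (a member of the TNF receptor superfamily), with 3 libraries, and cells given IgG2b, its isotype control, with 3 libraries. The comparison asks how GITR engagement alters these transcripts in ILC2 that are already activated. The labels do not give strain, age or sex of the mice, or whether libraries came from separate animals or cultures. A p-value here therefore sets the difference between groups against the spread among the 3 libraries of a group, and that spread may be technical. The titles assign the groups, while the treatment tags of replicates 2 and 3 carry running numbers (such as IgG3b) and were not used.

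Entry into mitosis is set by cyclin A2 and B cyclins bound to the kinase CDK1. WEE1 holds CDK1 inactive by phosphorylation, and CDC25 phosphatases release it. PLK1 and Aurora A amplify the switch, condensins compact the chromosomes, and the anaphase-promoting complex then marks securin and the B cyclins for destruction, after which the cell is cleaved by an actomyosin ring. Many of these genes are transcribed together in G2 by MuvB complexes with FOXM1, which act at a CHR element, and by NF-Y, which binds CCAAT boxes. IL-2, IL-7 and IL-33 are known to drive ILC2 to divide.

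The libraries were similar in size, at an estimated 18700000 to 20600000 fragments. Their values summed to 574195 to 606724 FPKM (read fragments scaled to transcript length and to library size), with 14586 to 14939 genes above 0. Of 15 ILC2 markers, 15 passed the filter described below. Tnfrsf18, the gene of GITR, had 256, 183 and 169 FPKM with DTA-1, against 188, 138 and 185 FPKM with IgG2b, with overlap. Of 64 marker genes of 10 other cell types, 62 were in the tables, 5 passed the filter (Cd3g, Cd79b, Cd68, Epcam and Pecam1), and 12 were at 0 in all libraries, the neutrophil genes S100a8, S100a9, Elane and Retnlg among them. The summed level of 8 T cell markers lay between 8.47 and 9.97 FPKM with DTA-1 and between 10.6 and 11.7 FPKM with IgG2b. Most of that sum was Cd3g, which averaged 8.01 FPKM with DTA-1 and 9.67 FPKM with IgG2b, and no other T cell marker passed the filter. Epcam, an epithelial adhesion gene, averaged 1.52 ± 0.388 FPKM with DTA-1 and 3.81 ± 0.840 FPKM with IgG2b (SD, n = 3 each), without overlap. The summed level of the 6 epithelial markers lay between 1.5 and 2.22 FPKM with DTA-1 and between 3.89 and 4.65 FPKM with IgG2b. It was mostly Epcam, and no other epithelial marker passed the filter. Pecam1, listed as an endothelial marker, had 38.7, 19.9 and 22.2 FPKM with DTA-1, against 43.8, 31.5 and 32.3 FPKM with IgG2b, with overlap. No other endothelial marker passed the filter. The part of such cells in the results was not tested.

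Because many G2/M genes are known to share promoter elements, the RefSeq promoter windows (GRCm38.p6, 250 bases before to 50 bases after the annotated start) were searched for CCAAT and for the CHR letters TTTGAA or TTTAAA, on both strands. Windows were found for 37 of the 44 genes, and not for Ccna2, Cdc25c, Foxm1, Lmnb1, Smc4, Tpx2 and Wee1. CCAAT occurred in 26 of 37 (70.3%), against 41.1% of 27025 mouse genes with a window, and the CHR letters in 26 of 37 (70.3%), against 30.6%. Both occurred in 22 of 37 (59.5%), against 12.2% of all genes. Neither occurred in 7 of 37, namely Cit, Melk, Ncaph, Nusap1, Tacc3, Ube2s and Pttg1, or 18.9% against 41.8% of all genes. The cyclin B1 gene Ccnb1 (chr13:100786437-100786736, minus strand), the anaphase activator gene Cdc20 (chr4:118437294-118437593, minus strand), the spindle gene Hmmr (chr11:40733388-40733687, minus strand) and the condensin gene Ncapg (chr5:45669675-45669974, plus strand) show how the elements lie. Ube2s (chr7:4812291-4812590, minus strand) and Pttg1 (chr11:43425932-43426231, minus strand) are shown because their transcripts differed least between the groups. The Pttg1 window lies inside the span of the gene (chr11:43420244-43427463), so its outermost start was not searched. Starts of some other genes, Cit and Cdc25b among them, also lay inside the span. A match in any window of a gene was counted, and Ncapd3 had CHR letters only in a window inside the gene (chr9:27060166-27060465). Sequences run 5′ to 3′ on the gene's strand, and capitals mark CCAAT or its complement ATTGG and TTTGAA or TTTAAA.
Ccnb1: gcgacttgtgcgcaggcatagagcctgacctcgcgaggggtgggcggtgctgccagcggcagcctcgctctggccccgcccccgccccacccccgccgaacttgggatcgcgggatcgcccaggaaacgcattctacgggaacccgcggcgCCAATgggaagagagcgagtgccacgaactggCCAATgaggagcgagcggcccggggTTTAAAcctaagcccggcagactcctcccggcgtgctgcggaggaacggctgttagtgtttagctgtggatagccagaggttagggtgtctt
Cdc20: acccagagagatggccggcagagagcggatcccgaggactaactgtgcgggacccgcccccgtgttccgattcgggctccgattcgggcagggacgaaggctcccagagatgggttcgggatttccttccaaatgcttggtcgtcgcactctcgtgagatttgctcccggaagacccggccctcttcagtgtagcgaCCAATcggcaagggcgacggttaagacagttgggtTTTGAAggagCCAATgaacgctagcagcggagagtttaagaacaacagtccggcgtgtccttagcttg
Hmmr: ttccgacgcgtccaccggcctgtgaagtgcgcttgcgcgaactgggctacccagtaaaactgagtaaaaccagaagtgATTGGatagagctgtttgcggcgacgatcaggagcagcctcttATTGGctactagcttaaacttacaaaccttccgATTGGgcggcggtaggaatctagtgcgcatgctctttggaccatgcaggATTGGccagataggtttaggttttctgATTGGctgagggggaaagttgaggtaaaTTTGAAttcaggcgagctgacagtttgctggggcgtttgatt
Ncapg: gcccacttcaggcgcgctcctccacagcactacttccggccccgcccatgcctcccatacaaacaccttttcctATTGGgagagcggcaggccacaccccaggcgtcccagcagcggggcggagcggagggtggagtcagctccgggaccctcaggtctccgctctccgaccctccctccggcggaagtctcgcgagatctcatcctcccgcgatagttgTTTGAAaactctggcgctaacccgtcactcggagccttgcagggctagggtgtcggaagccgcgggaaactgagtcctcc
Ube2s: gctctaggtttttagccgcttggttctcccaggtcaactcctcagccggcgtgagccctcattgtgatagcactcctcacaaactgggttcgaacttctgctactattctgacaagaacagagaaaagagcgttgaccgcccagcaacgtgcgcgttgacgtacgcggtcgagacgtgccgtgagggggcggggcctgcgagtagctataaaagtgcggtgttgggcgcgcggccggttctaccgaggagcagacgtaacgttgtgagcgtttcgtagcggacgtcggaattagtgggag
Pttg1: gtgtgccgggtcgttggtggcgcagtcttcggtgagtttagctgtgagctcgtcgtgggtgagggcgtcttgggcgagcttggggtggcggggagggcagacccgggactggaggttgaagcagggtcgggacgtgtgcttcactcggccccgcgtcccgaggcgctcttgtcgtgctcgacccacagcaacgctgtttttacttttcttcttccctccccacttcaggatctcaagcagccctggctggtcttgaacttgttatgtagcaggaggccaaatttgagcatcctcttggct
In Ccnb1 the CCAAT boxes began 99 and 67 bases before the start and the CHR letters 42 bases before it, counting base 1 as the annotated start. In Cdc20 the CHR letters began 18 bases before the start, between CCAAT boxes at 53 and 8 bases before it. In Ncapg the CHR letters began 30 bases before the start, and in Hmmr they began at base 9 of the transcript, downstream of 5 CCAAT boxes. A match of letters is not evidence of binding, and no match says only that these letters are not in this window. The median log2 fold change, described next, was -0.87 for the 22 genes with both motifs and -0.74 for the 15 others with a window, while the 7 with neither had a median of -0.78.

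Nearly all of the mitotic genes were measured lower with DTA-1, but none passed the test when all genes were considered. All 44 passed the filter of 1 FPKM in at least 3 libraries, so none was left out. Log2 fold changes, DTA-1 over IgG2b on log2(FPKM + 1), had a median of -0.82 and ran from -1.13 for Hmmr to 0.05 for Pttg1. The median over all 10501 tested genes was 0.01. The log2 fold change was below 0 for 42 of 44 genes, against 47.4% of all tested genes. With limma and Benjamini-Hochberg adjustment over all genes at 0.05, 0 of 44 were called lower and 0 higher, where 0.00952% and 0.0286% of all genes were. The smallest adjusted p was 0.0956, for Hmgb2 and Fbxo5. At an unadjusted p of 0.05, 34 of 44 were lower, against 7.73% of all genes, and 0 of 44 higher, against 6.22%. All 3 DTA-1 values lay below all 3 IgG2b values for 31 of 44, against 10.5% of all genes, and all 3 lay above for 0 of 44, against 11.2%. These genes vary together from library to library, so such counts are not counts of separate results. The genes were also chosen with earlier results of these data known. In RNA from whole cultures, fewer cells in mitosis and less of each transcript per cell cannot be told apart.

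IgG2b replicate 1 stood apart from the other libraries and set much of the size of the difference. The median of the 44 genes lay at -0.23, -0.54 and -0.46 in DTA-1 replicates 1, 2 and 3, against 1.01, 0.18 and 0.06 in IgG2b replicates 1, 2 and 3, on the log2 scale relative to each gene's mean over the 6 libraries. IgG2b replicate 1 held the highest value for 43 of 44 genes, all but Pttg1, and DTA-1 replicate 2 the lowest for 30 of 44. Over all 10501 tested genes, these libraries did so for 2312 and 1330. Among the IgG2b libraries, replicate 1 exceeded the mean of replicates 2 and 3 by a median factor of 1.89 (0.864 to 3.48) and more than 2-fold for 16 of 44 genes, where the median over all genes was 1.01 and 167 of 10497 passed 2-fold. The factor was largest for Plk1 (3.48) and Anln (3.19), and lowest, apart from Pttg1, for Cdc25a (1.27), genes chosen here after their values were seen. Without IgG2b replicate 1 the median log2 fold change was -0.52, 31 of 44 were lower at an unadjusted p of 0.05 (7.10% of all genes) and 0 of 44 were lower at the adjusted threshold (0% of all genes). The same 31 genes kept the groups apart, since IgG2b replicate 1 held the lowest IgG2b value of none of them, beside 14.7% of all genes with that library left out. DTA-1 replicate 1 was the highest of the DTA-1 libraries for 40 of 44 genes, and without it the groups did not overlap for 42 of 44, beside 15.1% of all genes. The 30 S phase genes of a further list had library medians of -0.26, -0.37 and -0.33 with DTA-1 and 0.61, 0.18 and 0.15 with IgG2b. Their median log2 fold change was -0.65 (-0.49 without IgG2b replicate 1), with 28 of 30 lower without overlap, beside 10.5% of all genes. What set IgG2b replicate 1 apart was not tested.

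**Figure D1:**
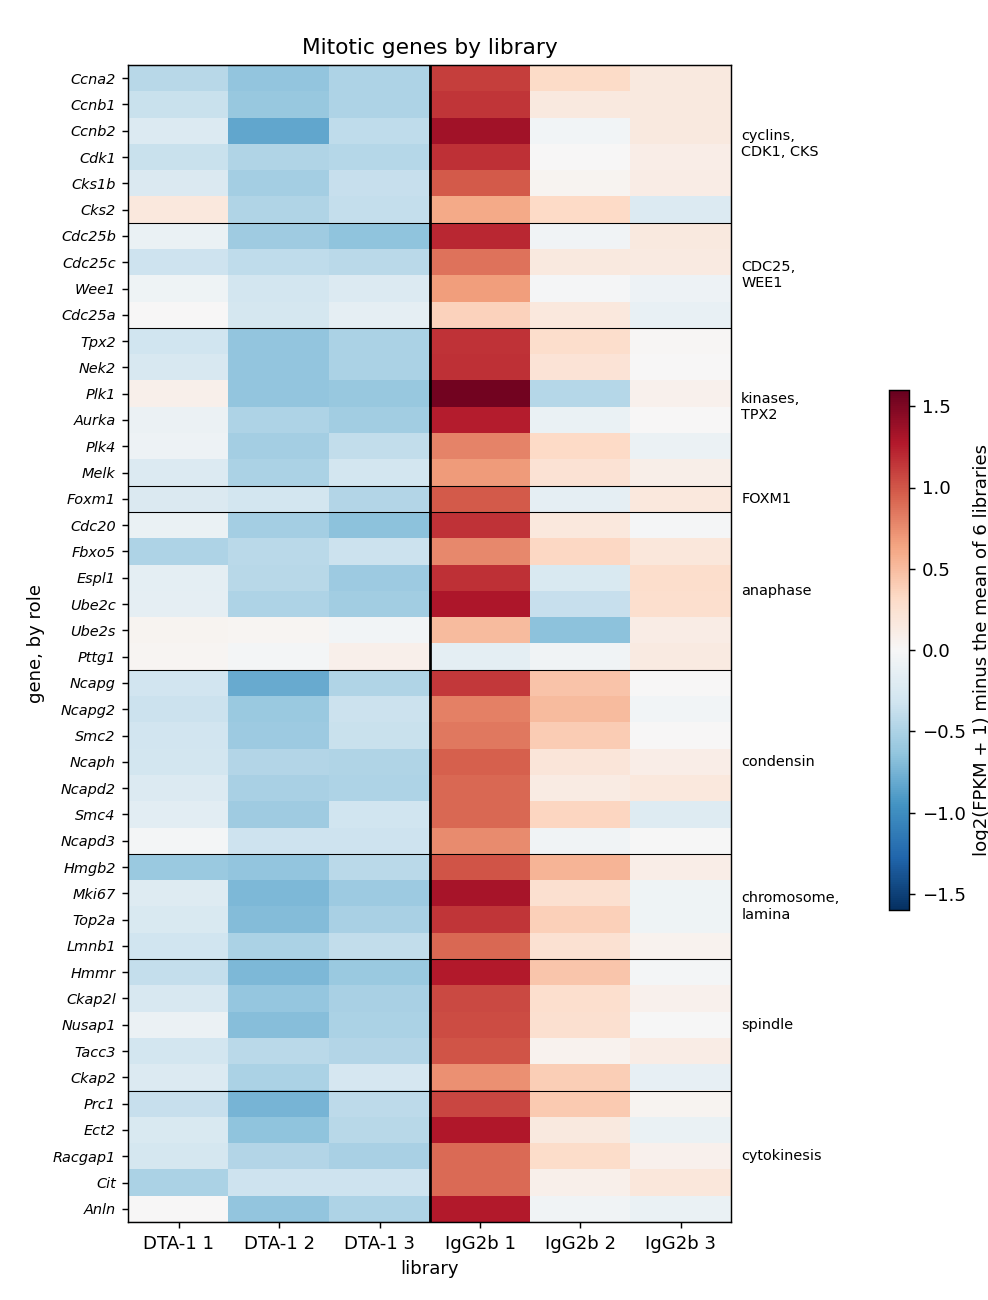
Colour gives log2(FPKM + 1) of each gene (rows, grouped by role and ordered by fold change within a role) minus its mean over the 6 libraries (columns, DTA-1 left of the line and IgG2b right of it). IgG2b replicate 1 is the reddest column in every role, the DTA-1 columns are mostly blue, and Ube2s and Pttg1 depart from the pattern.

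The cyclins and CDK1 had a median log2 fold change of -0.91 (6 genes, 5 lower without overlap), and -0.52 without IgG2b replicate 1. The counts without overlap of this and the later roles stand beside 10.5% of all tested genes. Ccna2, the cyclin of S phase and mitotic entry, had 23.3, 20.5 and 22.6 FPKM with DTA-1, against 70.5, 40.1 and 35.9 FPKM with IgG2b (log2 fold change -1.05 ± 0.23, SE of the fit, with limma adjusted p = 0.127); later parentheses give the same quantities, with the value without IgG2b replicate 1 where it moved by over 1.5 times. The DTA-1 libraries lay close together and below every IgG2b library. Ccnb1, which activates CDK1 at the onset of mitosis, had 22.5, 18.8 and 20.4 FPKM with DTA-1, against 65.4, 32.7 and 32.6 FPKM with IgG2b (-0.97 ± 0.25, and -0.64 without IgG2b replicate 1, limma adjusted p = 0.157). Cdk1, the mitotic kinase itself, had 11.6, 10.5 and 10.7 FPKM with DTA-1, against 35.2, 15.2 and 16.3 FPKM with IgG2b (-0.86 ± 0.28, and -0.49 without IgG2b replicate 1). Both genes kept the groups apart, and IgG2b replicate 1 held 2.0 times the mean of the other IgG2b libraries for Ccnb1 and 2.23 times for Cdk1. Ccnb2, the partner cyclin B2 gene, had 15.4, 9.69 and 13.3 FPKM with DTA-1, against 47.3, 17.4 and 20.2 FPKM with IgG2b (-0.97 ± 0.34, and -0.54 without IgG2b replicate 1), also apart. Cks1b and Cks2 encode small proteins that bind CDKs. Cks1b, the most abundant of the role by its mean over all 6 libraries, had 59.6, 47.7 and 54.1 FPKM with DTA-1, against 139, 72.0 and 76.0 FPKM with IgG2b (-0.76 ± 0.24, and -0.46 without IgG2b replicate 1). Cks2 had 75.8, 48.2 and 51.6 FPKM with DTA-1, against 103, 84.6 and 57.7 FPKM with IgG2b (-0.46 ± 0.24, and -0.28 without IgG2b replicate 1), and it was the gene of this role whose groups overlapped, with DTA-1 replicate 1 above IgG2b replicate 3.

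The genes that set the phosphorylation of CDK1 had a median of -0.58 (4 genes, 2 lower without overlap) and -0.33 without IgG2b replicate 1, with Cdc25b and Cdc25c at -0.87 and -0.78 and Wee1 and Cdc25a at -0.39 and -0.28. Cdc25a, whose phosphatase also acts at the G1/S transition, had 22.8, 18.6 and 20.5 FPKM with DTA-1, against 29.8, 25.8 and 20.9 FPKM with IgG2b (-0.28 ± 0.15, and -0.17 without IgG2b replicate 1, limma adjusted p = 0.466), with DTA-1 replicate 1 inside the IgG2b range. Cdc25b, the phosphatase known for starting CDK1 activation at the centrosome, had 6.18, 4.19 and 3.94 FPKM with DTA-1, against 16.8, 6.38 and 7.61 FPKM with IgG2b (-0.87 ± 0.32, and -0.49 without IgG2b replicate 1). Its groups did not overlap, but DTA-1 replicate 1 and IgG2b replicate 2 were close. Cdc25c averaged 2.20 ± 0.123 FPKM with DTA-1 and 4.66 ± 1.74 FPKM with IgG2b without overlap, and Wee1, the opposing kinase, 7.42 ± 0.674 FPKM with DTA-1 and 10.3 ± 3.45 FPKM with IgG2b with overlap (SD, n = 3 each).

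The mitotic and centrosome kinases, with the Aurora A activator TPX2, had a median of -0.76 (6 genes, 3 lower without overlap) and -0.48 without IgG2b replicate 1. Tpx2 had 16.1, 12.7 and 14.0 FPKM with DTA-1, against 46.5, 24.8 and 20.6 FPKM with IgG2b (-0.97 ± 0.27, and -0.63 without IgG2b replicate 1, limma adjusted p = 0.168), with every DTA-1 library below every IgG2b library. Plk1, the kinase that drives mitotic entry and exit, had 15.2, 8.87 and 9.07 FPKM with DTA-1, against 43.6, 10.1 and 15 FPKM with IgG2b (-0.77 ± 0.46, limma adjusted p = 0.523). DTA-1 replicate 1 lay above IgG2b replicates 2 and 3, and without IgG2b replicate 1 the log2 fold change of Plk1 was -0.19. Aurka, the Aurora A gene, had 18.1, 13.5 and 12.9 FPKM with DTA-1, against 47.6, 17.9 and 19.5 FPKM with IgG2b, with DTA-1 replicate 1 just above IgG2b replicate 2, and its log2 fold change of -0.76 ± 0.34 was -0.33 without IgG2b replicate 1. Melk, a kinase gene of cycling cells, had 7.87, 6.27 and 7.38 FPKM with DTA-1, against 15.5, 11.1 and 9.98 FPKM with IgG2b (-0.67 ± 0.17), a smaller difference with the groups apart. Plk4, the kinase of centriole duplication, and Nek2, a kinase of centrosome separation, had log2 fold changes of -0.68 ± 0.23 and -0.93 ± 0.28, and of -0.45 and -0.58 without IgG2b replicate 1. Foxm1, the transcription factor of the G2/M program, had 5.05, 4.80 and 4.16 FPKM with DTA-1, against 13, 5.44 and 6.99 FPKM with IgG2b (-0.67 ± 0.26, and -0.34 without IgG2b replicate 1, limma adjusted p = 0.31). Its groups did not overlap, by a narrow margin between DTA-1 replicate 1 and IgG2b replicate 2, and its unadjusted limma p was 0.0343, and 0.0567 without IgG2b replicate 1.

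The anaphase genes had a median of -0.79 (6 genes, 2 lower without overlap) and -0.38 without IgG2b replicate 1, and they held both genes of the 44 with a log2 fold change above 0. Cdc20, which activates the anaphase-promoting complex in mitosis, had 32.8, 24.1 and 22.1 FPKM with DTA-1, against 80.6, 40.1 and 35.2 FPKM with IgG2b (-0.88 ± 0.30, and -0.52 without IgG2b replicate 1, limma adjusted p = 0.237), without overlap. Fbxo5, which encodes the inhibitor EMI1 that keeps that complex off before mitosis, had 10.9, 11.4 and 12.2 FPKM with DTA-1, against 27.6, 20.1 and 18.0 FPKM with IgG2b (-0.85 ± 0.16, limma adjusted p = 0.0956), also without overlap. It shared the smallest adjusted p with Hmgb2, and its value without IgG2b replicate 1 was -0.68. The ubiquitin-conjugating enzyme genes of the complex, Ube2c and Ube2s, did not go together. Ube2c, which starts the ubiquitin chains, had 58.6, 45.9 and 43.8 FPKM with DTA-1, against 159.8, 50.2 and 78.0 FPKM with IgG2b (-0.79 ± 0.36, and -0.34 without IgG2b replicate 1), with DTA-1 replicate 1 inside the IgG2b range. Ube2s, which extends them and was the most abundant of the role, had 190.1, 189 and 179.7 FPKM with DTA-1, against 264, 117 and 202 FPKM with IgG2b (0.01 ± 0.26, limma adjusted p = 0.989). Its IgG2b libraries lay on both sides of the DTA-1 libraries, and the sign of its log2 fold change turned at equal totals (-0.02). Without IgG2b replicate 1 its log2 fold change was 0.27. Pttg1, the gene of securin, which holds separase inactive until anaphase, had 23.3, 22.3 and 24.2 FPKM with DTA-1, against 20.4, 21.9 and 25.4 FPKM with IgG2b (0.05 ± 0.12, limma adjusted p = 0.909), with the groups fully overlapping and its sign turned without IgG2b replicate 1 (-0.02). Espl1, the separase gene, averaged 3.99 ± 0.766 FPKM with DTA-1 and 8.33 ± 4.72 FPKM with IgG2b (SD, n = 3 each), with overlap.

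Condensin subunits had a median of -0.83 (7 genes, 5 lower without overlap) and -0.56 without IgG2b replicate 1. Ncapg, a subunit of condensin I, which reaches chromosomes after the nuclear envelope opens, had 7.99, 5.33 and 6.95 FPKM with DTA-1, against 23.2, 14.2 and 10.1 FPKM with IgG2b (-1.06 ± 0.27, limma adjusted p = 0.157). The other condensin I subunits, Ncapd2 and Ncaph, had log2 fold changes of -0.82 ± 0.22 and -0.83 ± 0.22, and each of the 3 kept the groups apart. Condensin II acts inside the nucleus in prophase. Its subunit Ncapd3 had 11.4, 9.06 and 9.13 FPKM with DTA-1, against 20.5, 11.2 and 11.6 FPKM with IgG2b (-0.47 ± 0.22, and -0.20 without IgG2b replicate 1, limma adjusted p = 0.404), with DTA-1 replicate 1 above IgG2b replicate 2, whereas Ncapg2 had a log2 fold change of -0.85 ± 0.21 without overlap. The condensin II gene Ncaph2 was not among the 44 and was read from a further list. It had a log2 fold change of -0.17 ± 0.13 (-0.10 without IgG2b replicate 1, limma adjusted p = 0.646), with overlap. The ATPase subunits that both complexes share are SMC2 and SMC4. Smc4, the most abundant of the role, had 35.7, 26.8 and 32.1 FPKM with DTA-1, against 77.4, 51.5 and 34.7 FPKM with IgG2b (-0.71 ± 0.26, and -0.42 without IgG2b replicate 1), overlapping at DTA-1 replicate 1, and Smc2 had a log2 fold change of -0.83 ± 0.20 without overlap.

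Genes of chromosome and nuclear envelope proteins had the lowest median, -0.98 (4 genes, 4 lower without overlap), and -0.62 without IgG2b replicate 1. Hmgb2, a DNA-bending chromatin protein gene that is high in cycling cells, had 84.1, 81.6 and 94.1 FPKM with DTA-1, against 257, 185 and 137 FPKM with IgG2b (-1.10 ± 0.21, limma adjusted p = 0.0956). It was the most abundant of the role, its DTA-1 libraries were close together, and its value without IgG2b replicate 1 was -0.87. Mki67, the gene of the proliferation marker Ki-67, which coats mitotic chromosomes, had 39.6, 27.3 and 30.3 FPKM with DTA-1, against 115, 54.8 and 43.3 FPKM with IgG2b (-1.0 ± 0.33, and -0.59 without IgG2b replicate 1, limma adjusted p = 0.225). Top2a, the topoisomerase that untangles sister chromatids, had 76.4, 55.8 and 63.2 FPKM with DTA-1, against 201, 119 and 86.4 FPKM with IgG2b (-0.97 ± 0.28, and -0.64 without IgG2b replicate 1). Both kept the groups apart. Lmnb1, which encodes lamin B1 of the nuclear lamina, had 57.9, 50.7 and 54.8 FPKM with DTA-1, against 138, 86.2 and 75.6 FPKM with IgG2b (-0.82 ± 0.21).

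The spindle-associated genes had a median of -0.86 (5 genes, 5 lower without overlap) and -0.55 without IgG2b replicate 1. Hmmr, whose protein RHAMM binds spindle microtubules, had 8.26, 6.30 and 6.99 FPKM with DTA-1, against 28.0, 15.4 and 10.8 FPKM with IgG2b (-1.13 ± 0.29, limma adjusted p = 0.157). This was the lowest log2 fold change of the 44 genes, and -0.77 without IgG2b replicate 1. Tacc3, which stabilises spindle fibres, had 18.0, 16.4 and 15.9 FPKM with DTA-1, against 46.0, 23.4 and 24.4 FPKM with IgG2b (-0.79 ± 0.24, and -0.49 without IgG2b replicate 1). Nusap1, a nucleolar and spindle protein gene, had 17.4, 11.2 and 12.8 FPKM with DTA-1, against 39.4, 22.4 and 18.6 FPKM with IgG2b (-0.86 ± 0.27, and -0.55 without IgG2b replicate 1), and Ckap2l, which is named after its likeness to Ckap2, averaged 7.53 ± 1.14 FPKM with DTA-1 and 15.8 ± 6.45 FPKM with IgG2b (SD, n = 3 each), both without overlap. Ckap2, a microtubule-associated protein gene, had 8.59, 6.81 and 8.20 FPKM with DTA-1, against 17.4, 13.6 and 9.17 FPKM with IgG2b (-0.66 ± 0.21), with a narrow gap between the groups.

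Cytokinesis genes had a median of -0.84 (5 genes, 4 lower without overlap) and -0.52 without IgG2b replicate 1. Prc1, which bundles the microtubules of the central spindle, had 17.6, 13.4 and 17.0 FPKM with DTA-1, against 49.2, 31.1 and 23.8 FPKM with IgG2b (-1.01 ± 0.24, limma adjusted p = 0.14). Racgap1 and Ect2, which together direct RhoA to the cleavage site, had log2 fold changes of -0.84 ± 0.21 and -0.88 ± 0.32 without overlap, and of -0.60 and -0.46 without IgG2b replicate 1. Cit, the citron kinase gene of the midbody, averaged 2.22 ± 0.224 FPKM with DTA-1 and 4.70 ± 1.91 FPKM with IgG2b (SD, n = 3 each), also without overlap. Anln, the scaffold of the contractile ring, had 2.67, 1.36 and 1.6 FPKM with DTA-1, against 7.80, 2.51 and 2.38 FPKM with IgG2b (-0.74 ± 0.36, limma adjusted p = 0.415). DTA-1 replicate 1 lay above IgG2b replicates 2 and 3, and the log2 fold change of Anln was -0.29 without IgG2b replicate 1.

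**Figure D2:**
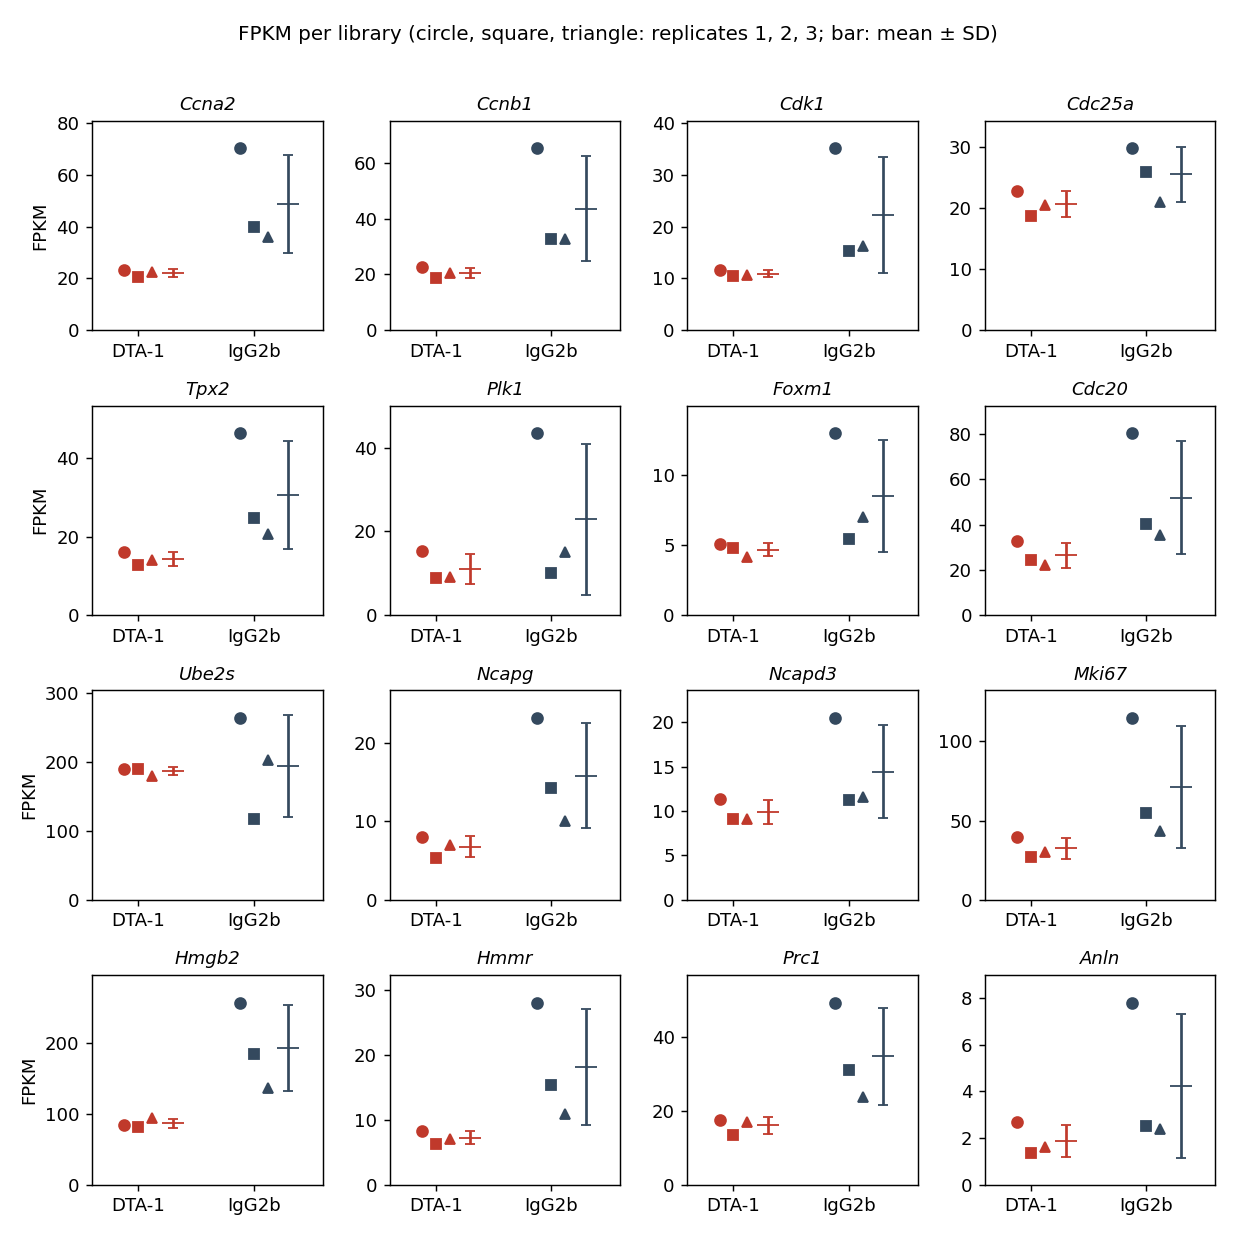
Points give FPKM (vertical axis, from 0) of 16 genes in each library, DTA-1 left and IgG2b right in every panel, with the mean ± SD (n = 3) beside them. For Ccna2, Ccnb1 and Hmgb2 all DTA-1 points lie below all IgG2b points, while for Plk1 and Anln IgG2b replicate 1 stands far above the other 5 libraries, and for Ube2s the groups overlap.

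**Figure D3:**
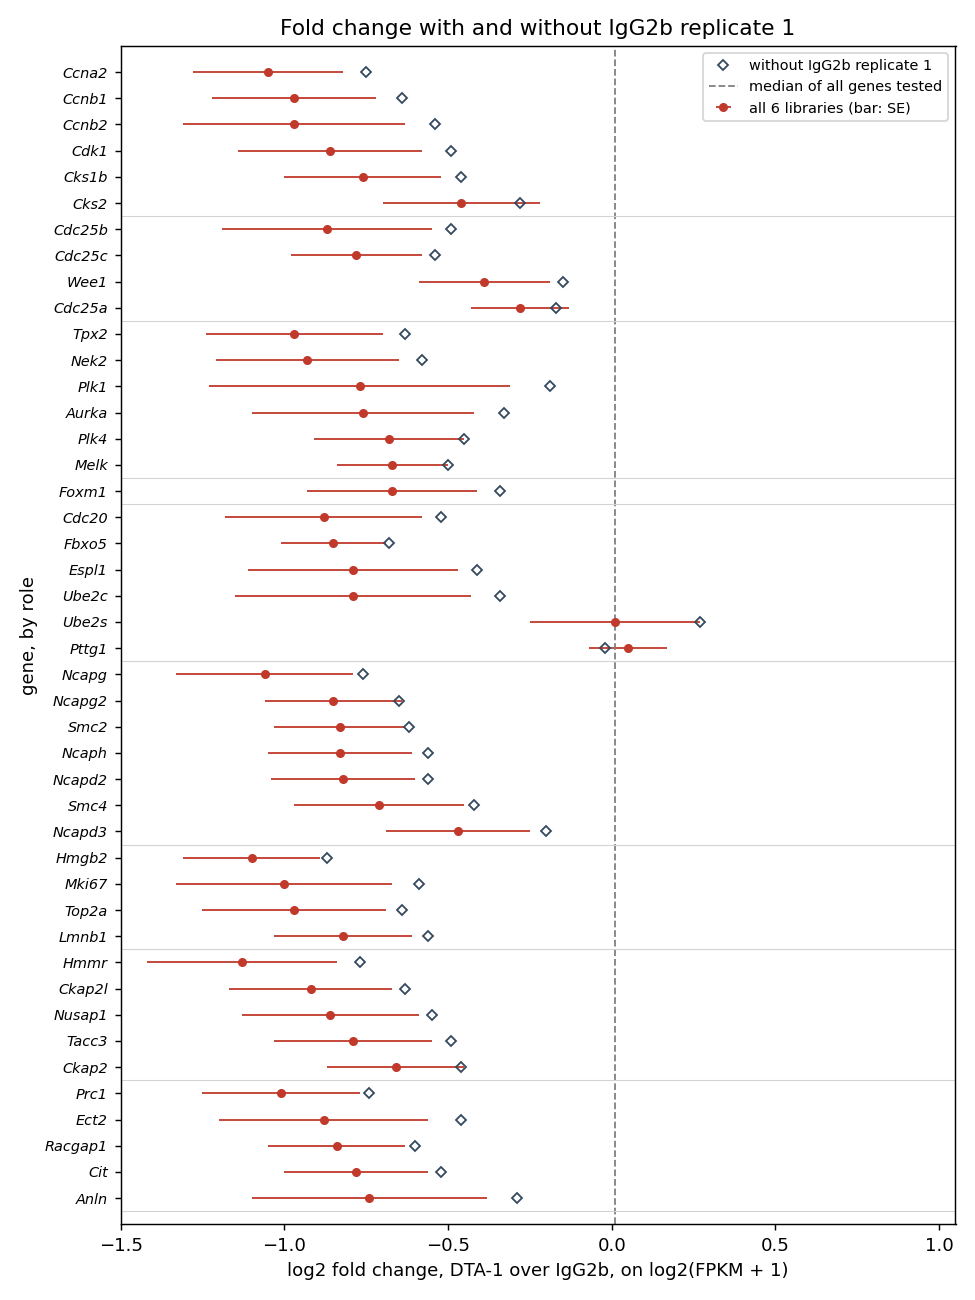
Circles with SE bars give the log2 fold change of each gene, DTA-1 over IgG2b, over all 6 libraries, diamonds the value without IgG2b replicate 1, and the dashed line the median of all tested genes (0.01). Diamonds lie nearer to 0 than circles for all genes but Ube2s, whose diamond lies at 0.27.

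Ratios between genes within a library do not depend on scaling between libraries, and 9 fixed pairs were compared. A 2-sided exact permutation test over 3 against 3 libraries cannot give a p below 0.1, so none could pass 0.05. Condensin II Ncapd3 over condensin I Ncapd2 had log2 ratios of -1.37, -1.38 and -1.39 with DTA-1, against -1.68, -1.74 and -1.74 with IgG2b, a difference of 0.34 (exact p = 0.1, 0.3 after adjustment over the 9 pairs). The ratios barely varied within a group, and the difference was 0.36 without IgG2b replicate 1. Wee1 over Cdc25c, the kinase and a phosphatase of the CDK1 switch, had log2 ratios of 1.80, 1.66 and 1.79 with DTA-1, against 1.10, 1.21 and 1.16 with IgG2b, a difference of 0.60 (exact p = 0.1, adjusted 0.3), and 0.57 without IgG2b replicate 1. Ube2s over Ube2c had log2 ratios of 1.70, 2.04 and 2.04 with DTA-1, against 0.73, 1.23 and 1.37 with IgG2b, a difference of 0.82 (exact p = 0.1, adjusted 0.3), and 0.63 without IgG2b replicate 1. In these 3 pairs the groups did not overlap. The other 6 pairs overlapped. Ccnb1 over Ccna2 ranged from -0.15 to -0.05 with DTA-1 and from -0.29 to -0.11 with IgG2b (difference 0.08, exact p = 0.5, adjusted 0.643). Plk4 over Plk1 ranged from -0.57 to -0.18 with DTA-1 and from -1.17 to 0.44 with IgG2b, the widest spread of the 9 pairs.

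**Figure D4:**
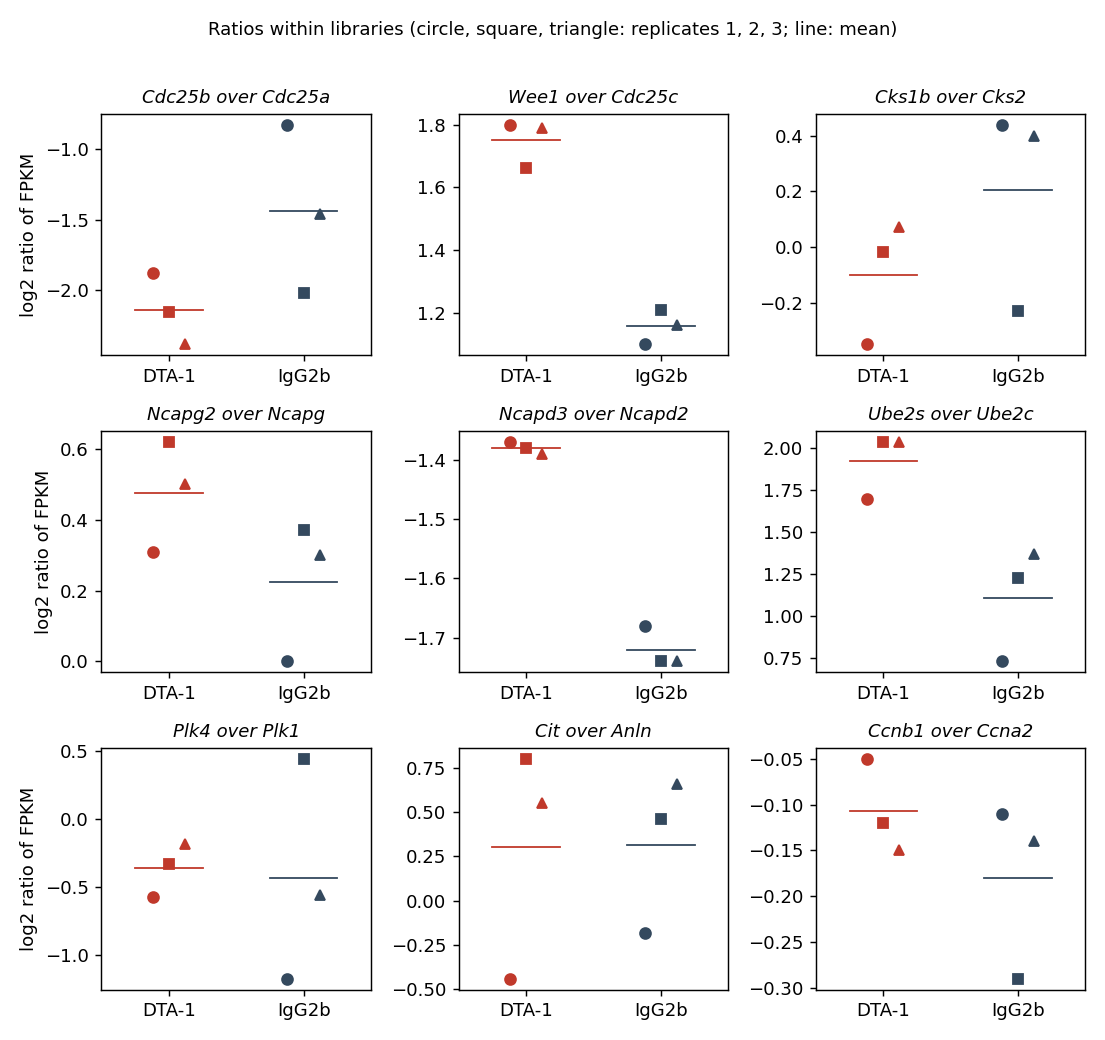
Each panel gives the log2 ratio of FPKM of a fixed pair of genes (vertical axis, its own range) in each library, DTA-1 left and IgG2b right, with a line at the group mean. The groups are apart for Wee1 over Cdc25c, Ncapd3 over Ncapd2 and Ube2s over Ube2c and overlap for the other 6 pairs.

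Other genes of the same machinery were read from further lists, beside the 10.5% of all genes that were lower without overlap. No gene of the lists in this and the next paragraph passed limma's adjusted threshold in either direction. At an unadjusted p of 0.05, 14 of the other G2/M genes, 4 of the chromosomal passenger complex, 5 of cohesin, 5 of the DREAM and MuvB complexes, 1 of NF-Y and 0 of the anaphase-promoting complex were lower, beside 7.73% of all genes. Among 19 other G2/M genes the median log2 fold change was -0.76 (-0.50 without IgG2b replicate 1), and 14 were lower without overlap. The log2 fold change was below 0 for 18 of 19, beside 47.4% of all tested genes. The exception was Gtse1, the most abundant of them, with 72.6 ± 8.20 FPKM with DTA-1 and 66.4 ± 14.6 FPKM with IgG2b (mean ± SD). Its log2 fold change was 0.14 ± 0.17 with overlap, and 0.30 without IgG2b replicate 1, where it was higher without overlap. Shcbp1, a midbody protein gene, had 6.65, 5.68 and 5.89 FPKM with DTA-1, against 20, 14.6 and 9.89 FPKM with IgG2b (-1.11 ± 0.22, limma adjusted p = 0.101). The 4 genes of the chromosomal passenger complex, which carries Aurora B to centromeres and the midzone, had a median of -0.94 (-0.61 without IgG2b replicate 1), with 3 lower without overlap. Its survivin gene Birc5 averaged 33 ± 4.77 FPKM with DTA-1 and 70.4 ± 32.4 FPKM with IgG2b (SD, n = 3 each). The 15 genes listed for the anaphase-promoting complex, its core subunits and the coactivator gene Fzr1, had a median of -0.12 (-0.07 without IgG2b replicate 1), with 3 lower without overlap. Anapc5 averaged 87.0 ± 1.55 FPKM with DTA-1 and 99.0 ± 11.3 FPKM with IgG2b.

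The 14 genes of cohesin and its regulators, which hold sister chromatids together, had a median of -0.14 (-0.23 without IgG2b replicate 1), and 4 were lower without overlap. These 4 were Esco2, Cdca5 and Sgol1, which act in establishing or guarding cohesion and had log2 fold changes of -1.05 ± 0.21, -0.92 ± 0.19 and -0.86 ± 0.22, and the ring subunit gene Smc1a, with -0.55 ± 0.17. Of the 12 genes of the DREAM and MuvB complexes, 7 were lower without overlap, with a median of -0.31 (-0.19 without IgG2b replicate 1). Mybl2, which joins MuvB to turn on G2/M genes, had 9.31, 8.96 and 9.21 FPKM with DTA-1, against 28.9, 16.8 and 15.6 FPKM with IgG2b (-1.02 ± 0.21, limma adjusted p = 0.108). Rbl2, which encodes the DREAM pocket protein p130, averaged 76.4 ± 9.11 FPKM with DTA-1 and 97.8 ± 5.65 FPKM with IgG2b. Of the NF-Y subunits, Nfyb averaged 29.8 ± 1.85 FPKM with DTA-1 and 42.7 ± 9.19 FPKM with IgG2b without overlap, while Nfya and Nfyc overlapped (log2 fold changes of -0.12 ± 0.22 and 0.08 ± 0.11). The sign of Nfya turned without IgG2b replicate 1 (0.10). Whether the lists differ from each other was not tested.

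The number of the 44 genes called depended on the threshold and on the weight of each library. At an adjusted threshold of 0.1, 2 of 44 were lower, against 0.429% of all genes. With limma's library quality weights, which were 0.423 for IgG2b replicate 1, 0.263 for IgG2b replicate 2 and 5.95 for DTA-1 replicate 2, 27 of 44 passed the adjusted threshold as lower, against 2.99% of all genes.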

How the data were processed

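RNA of 6 ILC2 samples (1.3 ug each, prepared with a directional kit, per the labels' protocols) was sequenced, and the authors deposited 1 table per sample with 1 value per gene. The unit is not named. The deposited values were taken as FPKM because their low values are spaced in proportion to 1 over transcript length (GENCODE annotation), which also gave the estimated fragments. The aligner TopHat and the build mm10 are named, per the submitters' processing notes; the sources used here do not name the quantifier, annotation or use of strand, so overlapping genes carry an uncertain share of reads. The variance between libraries of a group was 15.5 to 129 times that of counting, so none was treated as a copy.

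Tests were run on log2(FPKM + 1) for genes that reached 1 FPKM in 3 or more samples, a scale that understates changes of low genes, with limma 3.58.1 in R 4.3.3 (trend and robust moderation, group as the single term, 2-sided, Benjamini-Hochberg over all tested genes). The procedure was tested on simulated data. Ratios of gene pairs used exact permutation tests. Alternatives covered pseudocount, filter, scaling, replicate block, quality weights, threshold and leaving out each library. The members and lists were chosen with earlier results of these data known. Genes given per sample were, in each role, those with the largest and smallest fold change and the most abundant, plus Mki67, Ccnb1, Cdk1, Plk1, Foxm1 and, from the other lists, genes among the 4 smallest p; Aurka, Top2a, Fbxo5, Ube2c, Ccnb2 and Nusap1 were added after their values were seen. Of 214 genes in 21 other lists, 212 were in the tables, some under older symbols matched through RefSeq synonyms.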

Additional observations from a re-analysis of the deposited data

How the results depend on the processing

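The median log2 fold change of the 44 genes stayed below 0 under all alternatives run, from -0.99 to -0.52 with each library left out in turn and from -0.90 to -0.73 under the others. The count of genes lower at an unadjusted p was 27 to 39 with each library left out and 32 to 41 otherwise. Over all tested genes it was 562 to 912 and 567 to 1117. The count lower without overlap was 31 to 42 with each library left out and 29 to 36 otherwise. Over all tested genes it was 1251 to 1760 and 789 to 1549. The tested genes numbered 10399 to 10434 with a library left out and 8156 to 16827 otherwise. The count of 29 was of 41 genes, those with a mean of at least 5 FPKM. The count called lower at an adjusted p of 0.05 was 0 with each library left out and under each pseudocount, filter and scaling tried. It was 27 with quality weights, 20 with the replicate block (126 of 10501 genes) and 2 at an adjusted threshold of 0.1. Same-numbered libraries had correlations of 0.393, -0.101 and -0.129 between their deviations from the group means, and the replicates numbered 1 alone correlated best with their own number. With 3 libraries a group, these correlations cannot decide whether the numbers pair the samples. Signs turned for 2 genes near 0: Ube2s at equal totals (-0.0182) and with quality weights (-0.0916), and Pttg1 with quality weights (-0.0771). With each library left out, Ube2s ran from -0.309 (without IgG2b replicate 2) to 0.273 and Pttg1 from -0.0202 (without IgG2b replicate 1) to 0.13. The cause was not tested. Precision rests on 3 libraries a group, and the part of depth in it was not tested for these genes.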

Other observations

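The 14 ESCRT-III and abscission genes, which cut the bridge between daughter cells, had a median log2 fold change of 0.01, with 0 lower and 1 higher without overlap, beside 10.5% and 11.2% of all tested genes. Among 14 tested genes of septins and the actomyosin ring the median was -0.03. Of these, 1 was lower and 2 were higher without overlap, beside the same shares of all genes, so neither count sets these lists apart. The formin gene Diaph3, listed as Diap3, was the lower one, with 11.3, 10.7 and 11.3 FPKM with DTA-1, against 26.0, 19.4 and 13.7 FPKM with IgG2b (-0.73 ± 0.20, limma adjusted p = 0.171), whereas the myosin light chain gene Myl12a averaged 143 ± 1.02 FPKM with DTA-1 and 119.7 ± 11.2 FPKM with IgG2b (SD, n = 3 each), higher without overlap.

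The Greatwall kinase gene Mastl, which keeps the phosphatase PP2A-B55 off during mitosis, had 2.16, 1.90 and 2.38 FPKM with DTA-1, against 4.88, 3.49 and 3.14 FPKM with IgG2b (-0.61 ± 0.16, limma adjusted p = 0.161). The PP2A scaffold gene Ppp2r1a had 136, 136 and 123 FPKM with DTA-1, against 115, 88.8 and 115 FPKM with IgG2b (0.32 ± 0.13, limma adjusted p = 0.344). Neither passed the threshold over all genes, and both kept the groups apart. The 9 genes of that list had a median log2 fold change of -0.09.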
